A study of Mus musculus with 9 samples.

Results

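The transforming growth factor beta (TGF-beta) superfamily was measured here in the mouse spinal cord: its ligands, the proteins that store or trap them, their receptors and the Smad proteins that carry the signal. The genes were chosen by name alone: Tgfb1 to Tgfb3, Fst, every gene name that starts with Tgfbr, Bmpr, Inhb, Acvr or Fstl, and every one that starts with Bmp, Smad, Gdf or Ltbp and a digit. This gave 60 gene IDs, with 59 symbols, of 34745 IDs in all. The naming rule uses no measured value, but the family was picked with earlier results of these data known. Of the 60, 3 carry such a name but lie outside the signalling chain: Bmp1 is a protease that trims procollagens and ligand-trapping proteins, Bmp2k is a kinase, and Tgfbrap1 is a receptor-associated protein of vesicle tethering.

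The study compared uninjured sham mice, mice with spinal cord injury (SCI) and injured mice treated with hyperbaric oxygen (HBO), which is oxygen breathed above atmospheric pressure. RNA of the spinal cord was sequenced on day 7, from wild-type C57BL/6 mice aged 7 to 9 weeks, in 3 libraries per group and 9 in all. The sham group is labelled as having no injury, both other groups carry the injury, and no group carries a transgene. Whether separate animals gave the 3 libraries within each group is not stated, so a p-value here measures only the spread between these libraries. The labels also do not name the lesion level, the stretch of cord taken, the oxygen pressure or the number of sessions.

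TGF-beta, activin and BMP (bone morphogenetic protein) ligands are secreted dimers. TGF-beta itself is stored in the matrix in a latent form, bound to latent TGF-beta binding proteins (LTBPs), and has to be released before it can act. A ligand brings type II and type I receptor kinases together, and the type I receptor phosphorylates a receptor-regulated Smad: Smad2 and Smad3 mostly for TGF-beta and activin, and Smad1, Smad5 and Smad9 mostly for BMPs. These join Smad4 and enter the nucleus, while Smad6 and Smad7 hold the signal back. In the injured cord the pathway is known for its part in scar formation, astrocyte reactivity and the behaviour of microglia, macrophages and fibroblasts. Protein, phosphorylation and ligand release were not measured, so every value below is an RNA level.

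The libraries held 11159587 to 15715484 counts, and the 60 genes together took 0.203 to 0.228% of them in sham, 0.286 to 0.33% in SCI and 0.279 to 0.337% in HBO. All 4 neuronal markers used to check the tissue (Snap25, Syt1, Rbfox3, Nefl) were present, at a summed 3574 to 4250 CPM (counts scaled to library size) in sham, and no marker of any list was at 0 in every library. 3 libraries stood apart in markers of other cells: SCI replicate 1 in erythroid genes (1040 summed CPM, with its SCI companions at 264 and 327) and skeletal muscle genes (349, with 57.4 and 10.5), sham replicate 3 in Schwann cell genes (564 against 136 and 192) and HBO replicate 3 in neutrophil genes (271 against 57.2 and 26.5). HBO replicate 1 was also above its companions in skeletal muscle genes (67.5 against 12.2 and 6.53), and it was kept in the check that follows. Without SCI replicate 1, sham replicate 3 and HBO replicate 3, 24 of the 60 genes passed the test in SCI vs sham in place of 35. In HBO vs sham, 26 passed in place of 32. The SCI calls lost in that way were those of Acvr1, Acvr1b, Acvr1c, Acvrl1, Bmp3, Bmp4, Fst, Fstl4, Smad1 and Smad5, each with its direction kept, and that of a second Ltbp4 ID, which then had too few counts to test. In HBO vs sham they were those of Acvr1, Acvr1b, Acvr1c, Acvrl1, Bmp4, Gdf10, Smad1 and Smad5, while Fstl5 (-1.11, adjusted p = 0.0219) and Tgfbrap1 (-0.59, adjusted p = 0.0197) newly passed as lower. Over all tested genes, fewer passed without these 3 libraries as well, in both comparisons with sham. The loss of calls was thus not limited to the family.

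Most tested genes of the family were higher after injury. Of the 60 genes 51 had enough counts to be tested, and in SCI vs sham 29 were higher and 6 lower (edgeR's quasi-likelihood test, Benjamini-Hochberg adjusted p under 0.05 over all 17901 genes tested). That is 68.6% of those tested, where 36.6% of all tested genes passed. By direction, 56.9% were higher against 20% of all tested genes, and 11.8% were lower against 16.6%. The median log2 fold change was 0.63, against 0.004 over all genes. In HBO vs sham 28 were higher and 4 lower, or 62.7% against 30.9% of all tested genes, where 17.4% of all tested genes were higher and 13.5% lower. There the median was 0.57, against -0.00011 over all genes. Both comparisons use the same 3 sham libraries, so they are set side by side and neither repeats the other. 5 of the tested genes (Bmp15, Gdf15, Gdf3, Fst and the second Ltbp4 ID) had fewer than 10 counts in some sham library and entered the test through the injured groups. Among the other 46, 25 were higher and 6 lower in SCI vs sham, with a median of 0.43, and 25 higher and 4 lower in HBO vs sham, with a median of 0.49. Shares over all genes under the same cut were not counted, so these values have no background on a like basis.

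**Figure D1:**
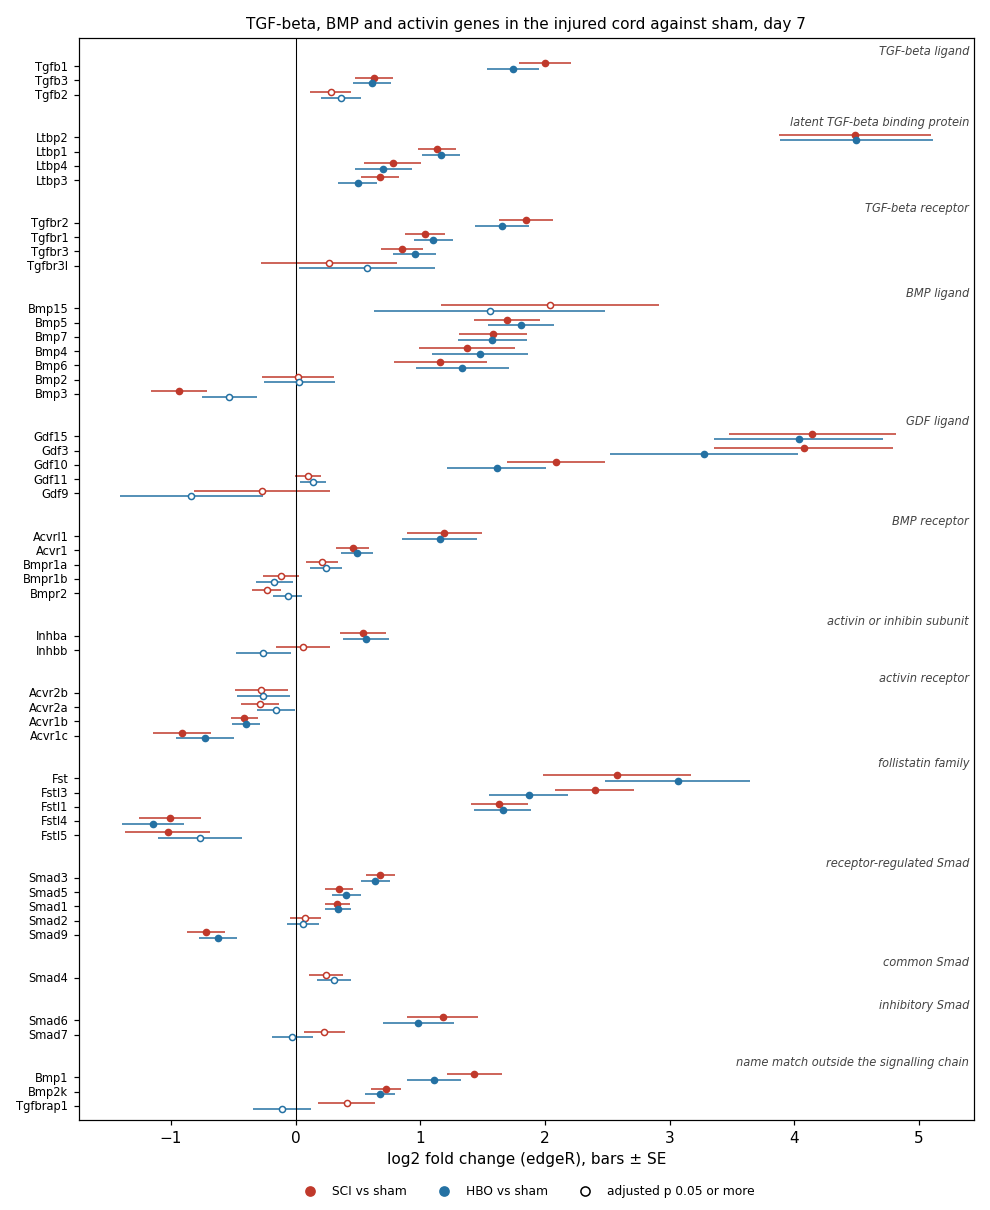
Log2 fold change against sham (horizontal axis) of each tested gene of the family, grouped by role, for SCI and for HBO, with bars of 1 standard error; the second Ltbp4 ID is left out. Ltbp2, Gdf15 and Gdf3 lie furthest to the right, near or above 4 in SCI, and activin receptors and Fstl4 lie to the left of 0.

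In bulk tissue a change in the number of cells of a type and a change in RNA per cell cannot be told apart. Markers of many cell types differed between injured and sham cord. The summed level of 5 fibroblast markers was 155 to 410 CPM in sham, 3157 to 7479 in SCI and 3908 to 8131 in HBO, and 5 of 5 rose in both. That of 4 phagocyte markers was 849 to 1381, 7908 to 13360 and 5036 to 9251 CPM, with 4 of 4 higher in both, and that of 4 endothelial markers was 206 to 251, 316 to 403 and 302 to 343, with 3 of 4 higher in both. Neuronal markers were at 1113 to 1946 CPM in SCI and 1297 to 2594 in HBO, and 4 of 4 fell in both. Pericyte and smooth muscle markers were at 269 to 293 CPM in sham, 479 to 687 in SCI and 463 to 558 in HBO, with 3 of 4 higher in both, and 2 of 4 microglial markers were higher in both. In SCI and HBO, 2 and 1 of 4 astrocyte markers and 2 and 1 of 4 Schwann cell markers were higher. Skeletal muscle markers were higher in 4 of 5 and erythroid markers in 3 of 3 in SCI, with 0 of either in HBO. Of oligodendrocyte markers 2 of 4 were lower in SCI and 0 in HBO, and 1 of 3 motor neuron markers was lower in both, while no neutrophil or ependymal marker passed. The part of these cells in the results below was not tested.

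The promoters below show the DNA at the start of genes that the results turn on: Tgfbr1 and Smad6, which rose, Smad9, which fell, and the neighbours Acvr1 and Acvr1c, which moved in opposite directions. They are from RefSeq (GRCm38.p6), 250 bases before to 50 after the start, 5′ to 3′ on the gene's strand, and capitals mark a motif known from Smad biology: GTCTAGAC, the palindromic Smad binding element, or GGCGCC, a GC-rich site bound by Smads of the BMP branch.
Tgfbr1 (chr4:47352972-47353271, plus strand): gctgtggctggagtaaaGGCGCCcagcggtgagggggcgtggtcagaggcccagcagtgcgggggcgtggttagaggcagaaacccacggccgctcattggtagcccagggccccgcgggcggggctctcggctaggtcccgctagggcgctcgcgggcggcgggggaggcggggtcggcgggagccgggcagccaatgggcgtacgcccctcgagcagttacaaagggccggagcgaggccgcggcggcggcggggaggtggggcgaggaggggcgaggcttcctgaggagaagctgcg
Smad6 (chr9:64022010-64022309, minus strand): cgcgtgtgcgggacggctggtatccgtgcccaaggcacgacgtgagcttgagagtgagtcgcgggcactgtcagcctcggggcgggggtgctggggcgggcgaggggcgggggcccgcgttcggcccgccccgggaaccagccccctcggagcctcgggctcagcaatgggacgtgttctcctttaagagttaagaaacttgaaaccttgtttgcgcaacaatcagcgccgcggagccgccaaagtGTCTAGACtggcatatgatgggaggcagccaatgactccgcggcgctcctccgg
Smad9 (chr3:54755332-54755631, plus strand): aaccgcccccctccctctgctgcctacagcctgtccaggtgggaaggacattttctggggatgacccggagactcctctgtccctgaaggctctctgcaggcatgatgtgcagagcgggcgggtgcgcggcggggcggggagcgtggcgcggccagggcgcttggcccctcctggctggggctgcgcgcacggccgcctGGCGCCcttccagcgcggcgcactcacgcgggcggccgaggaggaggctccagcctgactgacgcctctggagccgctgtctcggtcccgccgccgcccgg
Acvr1 (chr2:58566779-58567078, minus strand): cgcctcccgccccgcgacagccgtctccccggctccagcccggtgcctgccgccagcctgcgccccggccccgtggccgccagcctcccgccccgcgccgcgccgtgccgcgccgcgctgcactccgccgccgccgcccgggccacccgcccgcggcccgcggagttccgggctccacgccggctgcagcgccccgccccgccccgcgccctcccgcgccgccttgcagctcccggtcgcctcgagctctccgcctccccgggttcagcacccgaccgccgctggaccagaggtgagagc
Acvr1c (chr2:58357709-58358008, minus strand): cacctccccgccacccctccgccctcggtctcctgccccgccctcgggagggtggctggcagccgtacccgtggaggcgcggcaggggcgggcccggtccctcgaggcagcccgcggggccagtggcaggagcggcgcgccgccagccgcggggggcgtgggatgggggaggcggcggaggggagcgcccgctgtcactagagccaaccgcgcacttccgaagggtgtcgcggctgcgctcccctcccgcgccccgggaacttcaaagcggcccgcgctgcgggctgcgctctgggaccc

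RefSeq windows were matched for 44 of the 59 symbols, in 56 windows, and 3 motifs were searched on both strands. GTCTAGAC was in 0.213% of all 32851 windows and, among these genes, in Smad6 alone. GGCGCC was in 11.9% of all windows and in 12 of the 56 (21.4%), from 10 genes. CAGACA, a shorter Smad site, was in 21% of all windows and in 11 of the 56 (19.6%), from 11 genes. It was in none of the 5 windows printed, but another window of Tgfbr1 held it. The Acvr1 and Acvr1c windows held none of the 3 motifs and had a GC content of 83.7% and 79%. For both genes the RefSeq start lies inside the deposited gene coordinates, which end at 58567157 and 58357895. The Acvr1 window lies wholly within the gene as deposited. A match is a description of the letters and not a bound site.

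Of the 3 TGF-beta ligands, Tgfb1 and Tgfb3 rose and Tgfb2 did not pass. Tgfb1, the form best known from injury and immune cells (chromosome 7, 25687002 to 25705077, GRCm38), was at 2.5, 2.87 and 2.93 FPKM in the 3 sham libraries, 13.3, 11.2 and 8.31 after SCI, and 7.64, 11.7 and 8.24 after SCI with HBO. FPKM is the authors' level scaled to gene length and library depth, used here wherever genes are compared with each other. No injured library came near the sham range. A gap from sham was common: SCI and sham did not overlap in FPKM in 36 of the 51 tested genes of the family and in 53.6% of all tested genes. HBO and sham did not overlap in 32 of the 51 and in 47.1% of all tested genes. The log2 fold change of Tgfb1 was 1.998 ± 0.21 (standard error, adjusted p = 0.000516), a 3.99-fold rise, in SCI vs sham and 1.74 ± 0.21 (adjusted p = 0.000808) in HBO vs sham. Tgfb3 (chromosome 12, 86056744 to 86079041) was the most abundant of the 3 in sham and rose less. It was at 9.45, 13.1 and 13.6 FPKM in sham, 20.4, 18.1 and 16.7 after SCI and 19.8, 18.6 and 16.2 after SCI with HBO, with log2 fold changes of 0.63 ± 0.15 (adjusted p = 0.0092) and 0.61 ± 0.15 (adjusted p = 0.0132). Every injured library was above every sham library. The HBO call of Tgfb3 was lost without sham replicate 1 (0.47, adjusted p = 0.0502), and 12.4% of its exon bases are shared with genes on the opposite strand. Tgfb2 had log2 fold changes of 0.28 (adjusted p = 0.202) and 0.37 (adjusted p = 0.113). The share of Tgfb1 in the FPKM of the 3 ligands was thus 15.1 to 17.7% in sham, 29.7 to 36.1% in SCI and 24.9 to 35.2% in HBO.

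**Figure D2:**
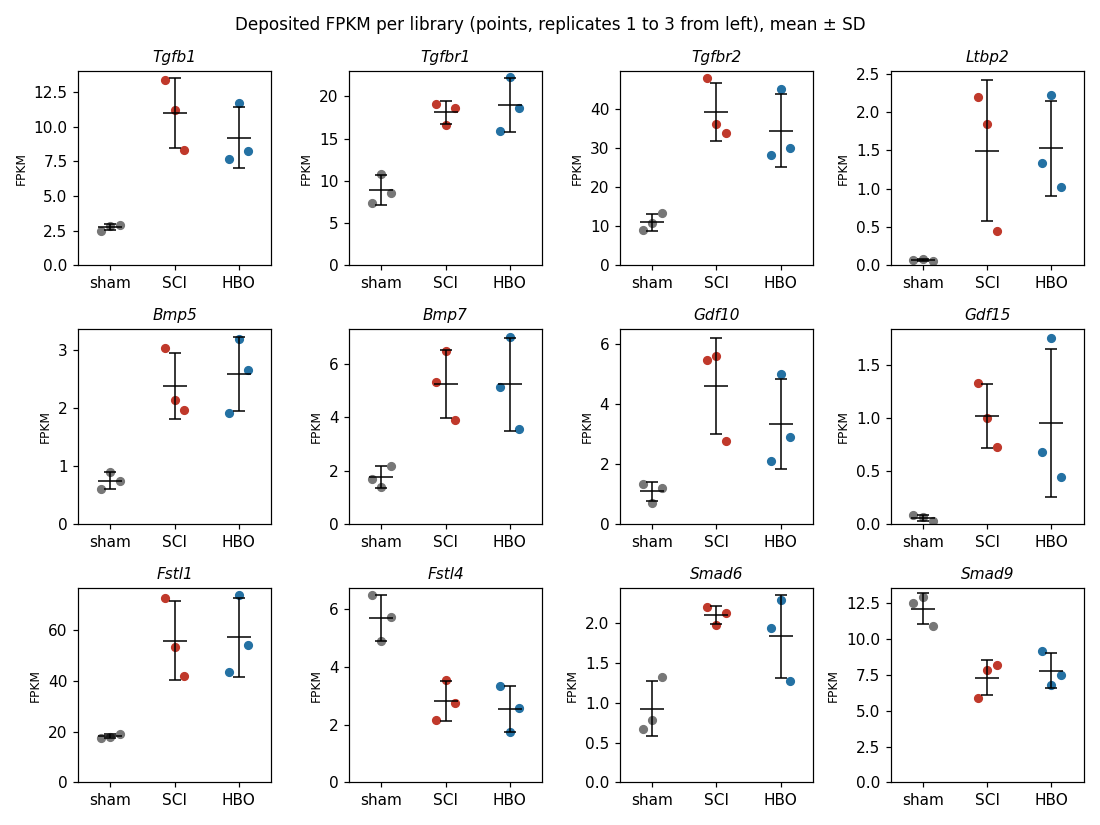
FPKM of 12 genes of the family in each of the 9 libraries (points), with the group mean as a bar and 1 standard deviation as error (n = 3 per group), each panel on its own linear axis from 0. The injured libraries lie above the sham libraries for Tgfb1, Tgfbr2 and Fstl1 and below them for Fstl4 and Smad9, while SCI and HBO overlap in every panel.

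All LTBPs, which hold latent TGF-beta in the matrix or have matrix roles of their own, were higher in SCI. Ltbp2, an elastic-fibre protein that unlike its relatives does not bind latent TGF-beta (chromosome 12, 84783212 to 84876532), was nearly silent in sham at 0.0641, 0.079 and 0.0599 FPKM. It was at 2.2, 1.84 and 0.455 FPKM in SCI and 1.34, 2.22 and 1.03 in HBO, so that its lowest injured library, SCI replicate 3, still stood above sham. The log2 fold change was 4.49 ± 0.61 (adjusted p = 0.000809), a 22.4-fold rise, and 4.50 ± 0.61 (adjusted p = 0.00105) in HBO. Ltbp1, which binds all TGF-beta forms, went from 1.48, 1.8 and 2.03 FPKM in sham to 3.93, 4.15 and 3.47 after SCI and 4.08, 4.47 and 3.27 after SCI with HBO, with no overlap. Its log2 fold changes were 1.13 ± 0.15 (adjusted p = 0.000723) and 1.17 ± 0.15 (adjusted p = 0.000924). Ltbp3, the most abundant of them and which helps TGF-beta to be secreted, was at 18, 19.9 and 20.8 FPKM in sham, 31.4, 33.4 and 28.3 after SCI and 27.3, 34.2 and 20.8 after SCI with HBO. SCI lay wholly above sham (0.68 ± 0.16, adjusted p = 0.00751), and HBO replicate 3 lay at the top of the sham range (0.50 ± 0.16, adjusted p = 0.0338).

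The calls of Ltbp3 and Ltbp4 were less firm. The HBO call of Ltbp3 was lost without any of 5 single libraries, sham replicates 1, 2 and 3 and HBO replicates 1 and 2 (0.32 to 0.55, adjusted p up to 0.127). Ltbp4 rose in SCI (0.78 ± 0.23, adjusted p = 0.0228) and HBO (0.70 ± 0.23, adjusted p = 0.0398). Its SCI call was lost without any of sham replicates 1 to 3 and SCI replicates 1 and 2 (0.74 to 0.83, adjusted p up to 0.0747), and its HBO call without any of sham replicates 1 to 3 and HBO replicates 1 and 2 (0.40 to 0.75, adjusted p up to 0.156). A second ID named Ltbp4 (ENSMUSG00000108715, chromosome 7, 27311715 to 27333604) lies inside the first and had 0 counts in all sham libraries, 201, 115 and 0 across SCI replicates 1 to 3 and 0, 0 and 42 across HBO replicates 1 to 3. That is at least 89.6-fold higher in SCI and at least 13.3-fold higher in HBO against a floor of 3 counts over the sham group, but libraries of each injured group were also at 0. Reads of this locus may be split between both IDs, so both values are uncertain. The SCI call of the second ID (adjusted p = 0.041) was lost without any 1 of 5 libraries, all but SCI replicate 3 among sham and SCI (adjusted p up to 0.098), and the HBO difference did not pass (adjusted p = 0.224).

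The signalling receptors of TGF-beta rose with their ligand. Tgfbr2, the type II receptor that binds TGF-beta first (chromosome 9, 116087698 to 116175363), was at 8.96, 10.7 and 13.3 FPKM in sham, 47.8, 36 and 33.8 after SCI and 28.2, 45.1 and 29.9 after SCI with HBO. All 6 injured libraries were above all 3 sham libraries, with log2 fold changes of 1.85 ± 0.22 (3.6-fold, adjusted p = 0.000542) and 1.66 ± 0.22 (adjusted p = 0.000925). Tgfbr1, the type I kinase of the same complex (chromosome 4, 47353222 to 47414931), was at 7.37, 10.8 and 8.55 FPKM in sham, 19.1, 16.6 and 18.7 after SCI and 15.9, 22.3 and 18.6 after SCI with HBO. These groups did not overlap with sham either, at 1.04 ± 0.16 (adjusted p = 0.00127) and 1.10 ± 0.16 (adjusted p = 0.00124). Tgfbr3, betaglycan, a co-receptor that presents ligand, rose by 0.85 ± 0.17 (adjusted p = 0.00394) and 0.95 ± 0.17 (adjusted p = 0.00326). Tgfbr3l, of which 52.2% of exon bases are shared with Gm49320, did not pass (0.27, adjusted p = 0.737).

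The 4 genes grouped here as activin receptors went the other way or did not pass. Acvr1 and Acvrl1, with similar names, are grouped with the BMP receptors and rose, as given below. Acvr1b, the type I receptor ALK4 of activin and the fourth most abundant gene of the family in sham, was at 16.8, 16 and 16.6 FPKM in sham, 12.1, 13.9 and 10.9 after SCI and 13.1, 12.6 and 11.4 after SCI with HBO. No injured library reached the sham level, and Acvr1b fell by 0.41 ± 0.11 on the log2 scale in SCI (adjusted p = 0.0163) and by 0.40 ± 0.11 in HBO (adjusted p = 0.0219). Acvr1c, the related type I receptor ALK7, fell by 0.91 ± 0.23 (adjusted p = 0.0119) and 0.73 ± 0.23 (adjusted p = 0.0363). The type II receptors Acvr2a (-0.29, adjusted p = 0.164, and -0.16, adjusted p = 0.457) and Acvr2b (-0.27, adjusted p = 0.347, and -0.26, adjusted p = 0.392) did not pass in SCI or HBO. The SCI call of Acvr1b was lost without sham replicate 1 or SCI replicate 3 (-0.39 to -0.32, adjusted p up to 0.0593). Its HBO call was lost without sham replicates 1 or 3 or HBO replicates 2 or 3 (-0.40 to -0.36, adjusted p up to 0.0775), and that of Acvr1c without sham replicates 1 or 2 or HBO replicates 2 or 3 (-0.76 to -0.60, adjusted p up to 0.124).

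Of 5 BMP receptors, 2 rose and 3 did not pass. Acvrl1, ALK1, a type I receptor of endothelial cells that binds BMP9 and BMP10, was at 2.21, 2.21 and 2.5 FPKM in sham, 6.84, 5.33 and 3.47 after SCI and 3.11, 6.95 and 5.28 after SCI with HBO. The injured groups lay above sham but spread over a wide range, with 1.19 ± 0.30 (adjusted p = 0.0116) and 1.16 ± 0.30 (adjusted p = 0.0163). Acvr1, ALK2, a type I receptor of BMPs, rose by 0.46 ± 0.13 (adjusted p = 0.0192) and 0.49 ± 0.13 (adjusted p = 0.0172). Bmpr2, the type II receptor of BMPs and the most abundant gene of the family in sham, was at 25.5, 28.1 and 24 FPKM in sham, 21.2, 20.7 and 23.7 after SCI and 23.9, 23.2 and 26.4 after SCI with HBO. SCI lay just below sham and HBO overlapped with it, and neither difference passed (-0.23 ± 0.12, adjusted p = 0.143, and -0.06, adjusted p = 0.71). Bmpr1a (0.21, adjusted p = 0.223) and Bmpr1b (-0.12, adjusted p = 0.576), the classical type I receptors, did not pass in SCI. Acvr1 lost its SCI call without sham replicates 1 or 3 or SCI replicate 1 (0.39 to 0.45, adjusted p up to 0.0754) and its HBO call without sham replicates 1 or 3 or HBO replicate 2 (0.39 to 0.49, adjusted p up to 0.0699). Acvrl1 lost its HBO call without sham replicates 1 or 2 or HBO replicate 2 (0.89 to 1.13, adjusted p up to 0.0677).

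Per length, the mix of receptor RNA differed between injured and sham cord. Tgfbr2 made up 21.2 to 29.7% of the FPKM of the 4 type II receptors in sham, 52.1 to 63.7% in SCI and 47 to 59.9% in HBO. Bmpr2 made up 53.7 to 60.3% in sham, 28.3 to 36.6% in SCI and 30.8 to 41.4% in HBO. Among the 7 type I receptors, Tgfbr1 went from 15.2 to 18.8% in sham to 27.8 to 29.6% in SCI and 26.7 to 31.4% in HBO, while Acvr1b went from 28 to 34.7% to 17.4 to 23.3% and 17.8 to 22%. For these 4 shares the injured libraries did not overlap with sham. The share of Acvrl1 did not overlap either. That of Bmpr1a did, at 25.8 to 29.8% in sham, 24.3 to 28.8% in SCI and 25.4 to 28.2% in HBO. Shares of the other receptors were not computed. Within a set a rising share lowers the others, and Bmpr2 itself did not pass. For the FPKM of single genes the groups did not overlap in 53.6% of all tested genes for SCI and 47.1% for HBO. Single genes are not a like basis for shares. The shares are descriptions of the libraries, with no test.

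**Figure D3:**
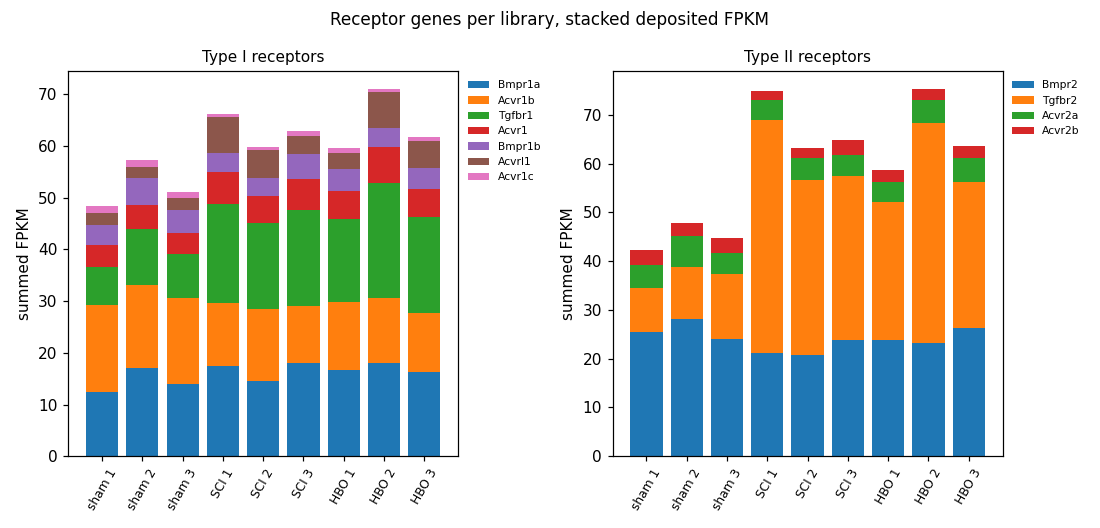
Stacked FPKM of the 7 type I receptors and of the 4 type II receptors in each of the 9 libraries. The Tgfbr2 segment is the tallest of the type II receptors in every injured library, and the Bmpr2 segment in every sham library.

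Receptor genes that lie side by side moved in opposite directions. Acvrl1 (chromosome 15, 101128522 to 101145336), which rose, and Acvr1b (101174067 to 101213679), which fell, are 28.7 kb apart. Acvr1c (chromosome 2, 58267453 to 58357895), which fell, and Acvr1 (58388644 to 58567157), which rose, are 30.7 kb apart. As given above, all of these receptors lost their SCI and HBO calls without the 3 libraries that stood apart. Acvr1 and Acvr1b also lost their SCI calls, and all of them their HBO calls, without some single library. Smad3 and Smad6 on chromosome 9, 195 kb apart, both rose.

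BMP ligands rose in 4 of the 7 cases tested, and Bmp3 fell in SCI. Bmp7, a ligand with known roles in neurons and glia, was at 1.69, 1.39 and 2.18 FPKM in sham, 5.32, 6.47 and 3.92 after SCI and 5.12, 7.02 and 3.55 after SCI with HBO. It did not overlap with sham and rose 3-fold (1.58 ± 0.27, adjusted p = 0.00228, and 1.58 ± 0.27, adjusted p = 0.00295). Bmp6, a ligand also known as a regulator of iron balance and the most abundant BMP here, was at 1.05, 3.23 and 3.9 FPKM in sham, 6.34, 5.52 and 6.32 after SCI and 7.28, 8.55 and 4.76 after SCI with HBO. Sham replicate 1 was far below the other sham libraries, and all injured libraries were above them (1.16 ± 0.37, adjusted p = 0.0324, and 1.34 ± 0.37, adjusted p = 0.0213). Bmp5 was at 0.603, 0.893 and 0.738 FPKM in sham, 3.04, 2.15 and 1.97 after SCI and 1.91, 3.19 and 2.67 after SCI with HBO. The groups did not overlap, at 1.70 ± 0.26 (adjusted p = 0.00144) and 1.81 ± 0.27 (adjusted p = 0.00137), but 46.7% of its exon bases are shared with Gm26903 on the opposite strand, and the strand setting of the counting is not given. Bmp4, a ligand known for driving astrocyte fate, was at 0.456, 1.71 and 1.24 FPKM in sham, 2.21, 3.69 and 2.81 after SCI and 2.49, 4.04 and 2.83 after SCI with HBO. Again sham replicate 1 was lowest and the groups did not overlap (1.37 ± 0.38, adjusted p = 0.0181, and 1.48 ± 0.38, adjusted p = 0.0159).

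Bmp3, which opposes other BMPs, fell by 0.94 ± 0.22 in SCI (adjusted p = 0.00877), from 0.712 to 0.821 FPKM in sham to 0.283 to 0.486, and did not pass in HBO (-0.53, adjusted p = 0.0905). Bmp2, a classical bone-forming ligand, was level (0.02, adjusted p = 0.964), and the oocyte ligand Bmp15 did not pass (2.04 ± 0.87, adjusted p = 0.0918). Bmp8a, Bmp8b and Bmp10 had too few counts to test, with Bmp10 at 0 in every library. The SCI call of Bmp4 was lost without SCI replicate 2 (1.17, adjusted p = 0.0611) and its HBO call without HBO replicate 2 (1.27, adjusted p = 0.0607). The SCI call of Bmp6 was lost without sham replicate 2 or any of SCI replicates 1 to 3 (1.12 to 1.28, adjusted p up to 0.0797) and its HBO call without HBO replicate 2 (1.17, adjusted p = 0.0748).

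Growth and differentiation factors (GDFs) gave some of the steepest rises from low levels. As given above, Gdf15 and Gdf3 entered the test through the injured groups. Gdf15, a stress-induced hormone that acts through the receptor GFRAL rather than the classical receptors, was counted 3, 2 and 1 times in the sham libraries, 61, 42 and 29 times after SCI and 28, 65 and 16 times after HBO. In FPKM this was 0.0814, 0.0613 and 0.0253 in sham, 1.33, 1 and 0.722 after SCI and 0.677, 1.75 and 0.439 after SCI with HBO. No injured library overlapped with sham, and the log2 fold changes were 4.14 ± 0.67 (adjusted p = 0.00171) and 4.04 ± 0.68 (adjusted p = 0.00251), the latter 3.29 without HBO replicate 2 (adjusted p = 0.00497). Gdf10, also called BMP3B, a ligand known from reports on axonal sprouting after stroke, was at 1.33, 0.715 and 1.21 FPKM in sham, 5.48, 5.62 and 2.76 after SCI and 2.09, 5.02 and 2.91 after SCI with HBO. All injured libraries were above sham (2.09 ± 0.39, adjusted p = 0.00325, and 1.61 ± 0.40, adjusted p = 0.0129), and the HBO call was lost without HBO replicate 2 (1.22, adjusted p = 0.0529). Gdf3, a Nodal-like ligand of the embryo, was counted 4, 0 and 1 times in the sham libraries, 29, 33 and 42 times after SCI and 16, 30 and 8 times after HBO. Its groups did not overlap (4.08 ± 0.72, adjusted p = 0.00243, and 3.28 ± 0.76, adjusted p = 0.00994), and these sizes rest on few sham counts: without sham replicate 1 they were 5.61 (adjusted p = 0.00538) and 4.81 (adjusted p = 0.0137), and without HBO replicate 2 the latter was 2.68 (adjusted p = 0.0381).

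Gdf11, a patterning ligand close to myostatin and the most abundant GDF, was level across the study at 13.4, 12.5 and 14.4 FPKM in sham, 13.8, 14.9 and 14.2 after SCI and 15.3, 13.6 and 15 after SCI with HBO. The groups overlapped and neither difference passed (0.10 ± 0.11, adjusted p = 0.502, and 0.14, adjusted p = 0.354). The oocyte ligand Gdf9 did not pass in SCI (-0.27, adjusted p = 0.735). Gdf2, Gdf5, Gdf6 and Gdf7 had too few counts to test. Gdf5, a joint-forming ligand, had 1 count over the sham group, 11 in SCI and 12 in HBO, ratios per depth of 9.36 (95% interval from counting error alone 1.36 to 403) and 11.4 (1.68 to 486). By library, SCI (1, 7 and 3 counts) overlapped with sham (0, 1 and 0) in FPKM. Gdf6 had 12 counts in sham, all in replicate 1, with 14 in SCI and 3 in HBO. Its ratio was 0.237 (0.0429 to 0.878) in HBO vs sham and 0.239 (0.044 to 0.855) in HBO vs SCI, again from counting error alone.

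Of the activin and inhibin subunits, only Inhba and Inhbb had enough counts to test. Inhba, the beta A subunit of activin A, was at 2.5, 2.76 and 3.72 FPKM in sham, 4.35, 4.79 and 3.83 after SCI and 4.76, 4.64 and 3.82 after SCI with HBO. The lowest injured libraries lay just above the highest sham library, and the log2 fold changes were 0.54 ± 0.18 (adjusted p = 0.0421) and 0.57 ± 0.18 (adjusted p = 0.0401). The SCI call was lost without sham replicates 1 or 2 or SCI replicates 1 or 2 (0.43 to 0.52, adjusted p up to 0.151), and the HBO call without sham replicates 1 or 2 or HBO replicates 1 or 2 (0.46 to 0.54, adjusted p up to 0.148). Inhbb, the beta B subunit, did not pass (0.06, adjusted p = 0.862). Inhbc and Inhbe, subunits known from the liver, were not tested, and Inhbc was at 0 in every library.

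The follistatin family split by member. Fstl1, a secreted glycoprotein known from mesenchymal cells and astrocytes, became the most abundant gene of the 60. It was at 17.6, 17.9 and 19 FPKM in sham, 72.4, 53.4 and 41.7 after SCI and 43.5, 73.8 and 54 after SCI with HBO, so that the lowest injured library was above all sham libraries. The log2 fold changes were 1.64 ± 0.23 (3.11-fold, adjusted p = 0.000883) and 1.66 ± 0.23 (adjusted p = 0.00106). Fstl3, which traps activin and GDFs, was at 0.203, 0.321 and 0.417 FPKM in sham, 2.08, 1.34 and 1.53 after SCI and 1.01, 1.45 and 0.984 after SCI with HBO. It did not overlap with sham (2.40 ± 0.31, adjusted p = 0.000697, and 1.87 ± 0.32, adjusted p = 0.00266), and 47.3% of its exon bases are shared with Prss57 on the opposite strand. Fst itself, the classical activin trap, was low, with 4, 3 and 1 counts in the sham libraries. It had 21, 21 and 16 counts after SCI and 18, 41 and 14 after HBO, and entered the test through these injured groups. Its log2 fold changes were 2.57 ± 0.59 (adjusted p = 0.0076) and 3.06 ± 0.58 (adjusted p = 0.00434), the latter 2.45 without HBO replicate 2 (adjusted p = 0.0137).

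In contrast, the follistatin-like genes Fstl4 and Fstl5, known as neuronally expressed, were lower. Fstl4 was at 6.49, 4.89 and 5.75 FPKM in sham, 2.16, 3.56 and 2.76 after SCI and 3.34, 1.74 and 2.58 after SCI with HBO. All injured libraries were below sham, and Fstl4 fell by 1.01 ± 0.25 (2.01-fold lower, adjusted p = 0.0105) and 1.14 ± 0.25 (adjusted p = 0.00813). Fstl5 was at 6.05, 5.56 and 2.65 FPKM in sham, 1.44, 3.02 and 2.51 after SCI and 3.39, 1.98 and 2.92 after SCI with HBO. Sham replicate 3 lay within the injured range. Fstl5 fell by 1.03 ± 0.34 in SCI (adjusted p = 0.0369), a call lost without sham replicates 1 or 2 or SCI replicates 1 or 3 (-1.08 to -0.78, adjusted p up to 0.136), and did not pass in HBO (-0.76, adjusted p = 0.111), where it passed without sham replicate 3 (-1.05, adjusted p = 0.0287). As given above, the 4 neuronal markers fell in the same libraries, and their part in the fall of Fstl4 and Fstl5 was not tested.

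Among receptor-regulated Smads, the BMP branch changed its mix. Smad9, also called Smad8 and the most abundant of this class in sham, was at 12.5, 12.9 and 10.9 FPKM in sham, 5.89, 7.82 and 8.2 after SCI and 9.15, 6.76 and 7.46 after SCI with HBO. Every injured library was below sham, and Smad9 fell by 0.72 ± 0.15 (adjusted p = 0.00527) and 0.62 ± 0.15 (adjusted p = 0.013). The HBO call was lost without sham replicate 1 or HBO replicate 2 (-0.59 to -0.52, adjusted p up to 0.052). Smad1 and Smad5, of the same branch, rose slightly, by 0.34 ± 0.10 (adjusted p = 0.0275) and 0.35 ± 0.11 (adjusted p = 0.0346) in SCI and 0.34 (adjusted p = 0.0306) and 0.41 (adjusted p = 0.0213) in HBO. Of the FPKM of these 3 genes, Smad9 made up 46 to 50.3% in sham, 25.7 to 33.9% in SCI and 28.5 to 36% in HBO. Of the TGF-beta branch, Smad3 rose from 5.83 to 6.76 FPKM in sham to 9.78 to 10.1 in SCI and 8.43 to 11.2 in HBO (0.68 ± 0.12, adjusted p = 0.00218, and 0.64 ± 0.12, adjusted p = 0.00366), while Smad2 did not pass (0.08, adjusted p = 0.67). Smad1 lost its SCI call without any of sham replicates 1 to 3 or SCI replicates 1 or 2 (0.27 to 0.35, adjusted p up to 0.107) and its HBO call without each library in turn (0.30 to 0.38, adjusted p up to 0.0843). Smad5 lost its SCI call without sham replicates 1 or 3 or SCI replicates 1 or 3 (0.27 to 0.33, adjusted p up to 0.137) and its HBO call without sham replicates 1 or 3 or HBO replicate 2 (0.33 to 0.38, adjusted p up to 0.0946).

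Smad4, the partner shared by both branches, was at 8.35, 8.33 and 8.6 FPKM in sham, 11.3, 8.58 and 9.81 after SCI and 10.7, 11.7 and 8.62 after SCI with HBO, and did not pass (0.24, adjusted p = 0.192, and 0.31, adjusted p = 0.115). SCI replicate 2 lay within the sham range. Smad6, the inhibitory Smad of the BMP branch and the gene with the palindromic element in the promoter printed above, was at 0.675, 0.788 and 1.32 FPKM in sham, 2.2, 1.98 and 2.13 after SCI and 1.95, 2.3 and 1.27 after SCI with HBO. SCI lay above sham (1.18 ± 0.28, adjusted p = 0.0092), and HBO replicate 3 lay within the sham range (0.99 ± 0.29, adjusted p = 0.0251). The HBO call was lost without sham replicates 1 or 2 or HBO replicates 1 or 2 (0.80 to 0.94, adjusted p up to 0.0979). Smad7, the inhibitor of the TGF-beta branch as well, was at 10.1, 8.93 and 9 FPKM in sham, 11.5, 9.58 and 11.6 after SCI and 10.7, 10.1 and 6.62 after SCI with HBO. The groups overlapped and neither difference passed (0.23, adjusted p = 0.298, and -0.03, adjusted p = 0.921), with the sign in HBO turning without sham replicate 1 or HBO replicate 3 (0.04 and 0.15).

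Of the 3 genes outside the chain, Bmp1 was at 12.6, 17.5 and 18.8 FPKM in sham, 54.4, 42.3 and 34 after SCI and 31, 44.4 and 29.4 after SCI with HBO. It was the second most abundant of the 60 in both injured groups and did not overlap with sham (1.43 ± 0.22, adjusted p = 0.00136, and 1.11 ± 0.22, adjusted p = 0.00516). Bmp2k was at 10.6, 12.5 and 12.7 FPKM in sham, 21.9, 17.5 and 19.1 after SCI and 18.1, 19.9 and 18.7 after SCI with HBO. Its groups did not overlap with sham (0.72 ± 0.12, adjusted p = 0.00191, and 0.68 ± 0.12, adjusted p = 0.00323), and 14% of its exon bases are shared with genes on the opposite strand. Tgfbrap1 did not pass against sham (0.41, adjusted p = 0.194, and -0.11, adjusted p = 0.758), although its HBO difference passed without the 3 libraries that stood apart (-0.59, adjusted p = 0.0197).

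In sham the order of mean levels was Bmpr2 at 25.9 ± 2.06 FPKM (SD, n = 3), Ltbp3 at 19.6 ± 1.45, Fstl1 at 18.2 ± 0.766, Acvr1b at 16.5 ± 0.394 and Bmp1 at 16.3 ± 3.28. Ltbp3 and Fstl1 lay within their spread of each other, as did Acvr1b and Bmp1. In SCI the order was Fstl1 at 55.9 ± 15.5, Bmp1 at 43.6 ± 10.3, Tgfbr2 at 39.2 ± 7.51, Ltbp3 at 31 ± 2.59 and Bmpr2 at 21.9, and the first 3 of these overlapped. The same 5 genes led in HBO in the same order of means, but there the libraries of each gene overlapped with those of the next in rank. Bmp1 at 34.9 ± 8.22 and Tgfbr2 at 34.4 ± 9.28 were nearly level.

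Which library was highest was shared by many genes. Over the 29 genes higher in SCI vs sham, the highest SCI library was replicate 1 in 18, replicate 2 in 9 and replicate 3 in 2. The highest HBO library was replicate 2 in 25. The matching share over all genes was not counted, and SCI replicate 1 is the library that stood apart in erythroid and skeletal muscle genes. The fibroblast markers were highest in the same libraries, at 7479, 5610 and 3157 summed CPM in SCI replicates 1 to 3 and 3908, 8131 and 5231 in HBO, and the phagocyte markers at 13360, 9118 and 7908 and at 5036, 9251 and 8657. Endothelial markers were also highest in SCI replicate 1 and HBO replicate 2. Other markers peaked elsewhere: astrocyte markers in replicate 3 of both groups, Schwann cell markers in replicate 2 of both and microglial markers in SCI replicate 3 and HBO replicate 2. Pericyte and smooth muscle markers were highest in SCI replicate 1 and HBO replicate 3. The part of these cells in the spread of the genes was not tested.

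No gene of the family passed the test between treated and untreated injury. In HBO vs SCI 0 of 51 genes passed with edgeR (0% of all genes; lowest adjusted p = 0.959), and 0 with DESeq2, which called 0.151% of all genes. Only Tgfbrap1 had an unadjusted p under 0.05, against 4.18% of all genes, and only for Tgfbrap1 did the groups not overlap, against 7.9%. Tgfbrap1 was at 4.42, 4.45 and 4.16 FPKM in SCI and 2.41, 2.64 and 4.01 in HBO, with 3.67, 3.97 and 2.27 in sham. HBO replicate 3 was close to SCI, sham replicate 3 was as low as the other HBO libraries, and the log2 difference was -0.52 ± 0.23 (unadjusted p = 0.0489, adjusted p = 0.959). Differences were positive in 27 and negative in 24 genes, with a median of 0.01 against -0.0033 over all genes.

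How large a difference between HBO and SCI these libraries leave possible varies by gene. The 95% interval lay within 2-fold either way in 39 of 51 genes and within 1.5-fold in 25, and the median half-width was 0.48 on the log2 scale. For Tgfb1 the difference was -0.26 (-0.70 to 0.18) and for Tgfbr2 -0.19 (-0.66 to 0.27). For 12 genes the interval reached beyond 2-fold: Bmp15, Gdf3, Gdf9, Gdf10, Gdf15, Tgfbr3l, Fst, Fstl3, Fstl5, Ltbp2, Tgfbrap1 and the second Ltbp4 ID. Ltbp2, at 0.01 (-1.01 to 1.03), shows that a difference near 0 can still be loosely known. Missing the threshold does not show that both groups are alike. 3 genes passed in SCI vs sham and not in HBO vs sham (Bmp3, Fstl5 and the second Ltbp4 ID), and none of the 3 differed between HBO and SCI by the test of that difference.

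**Figure D4:**
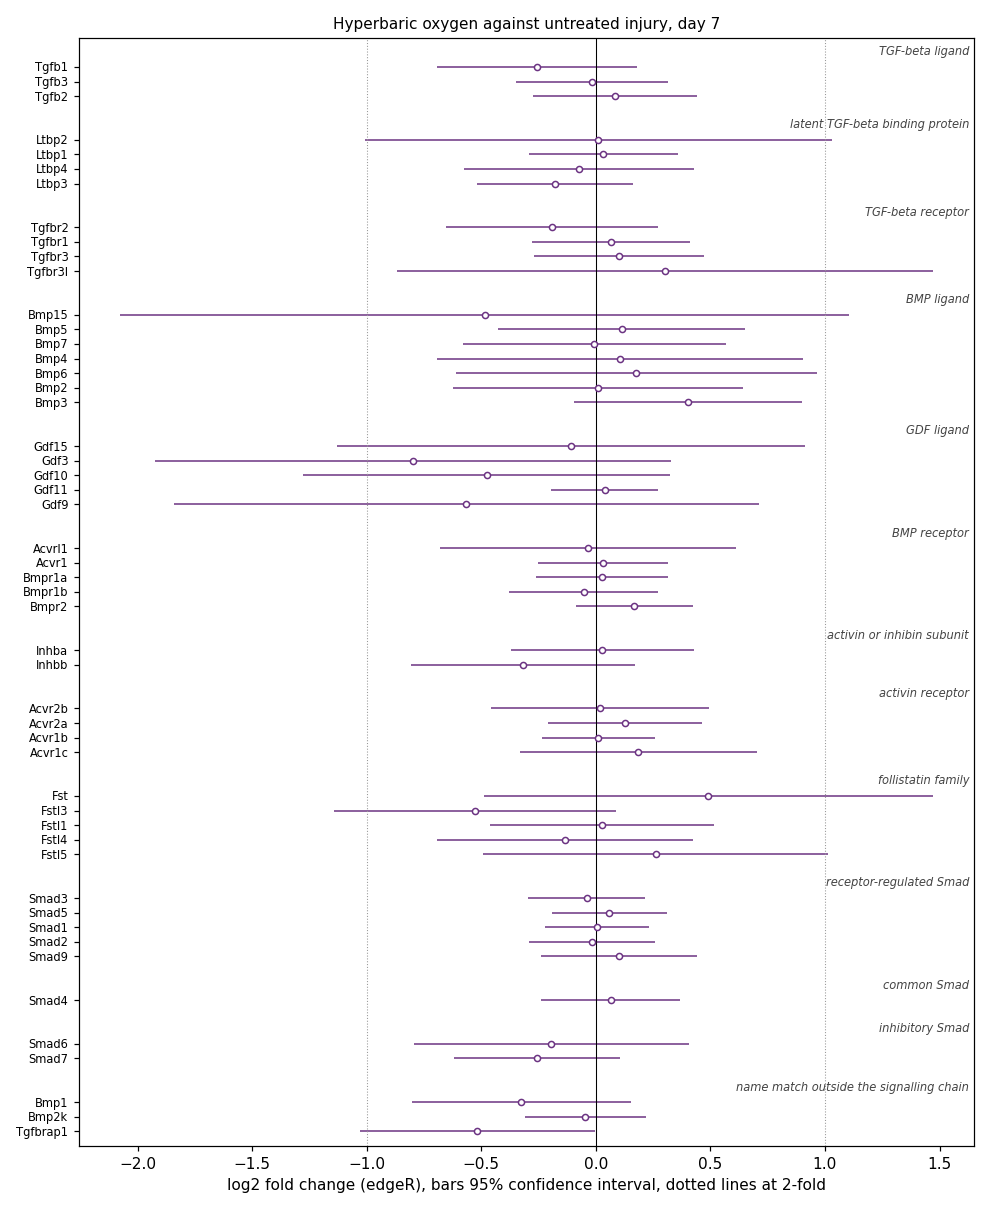
Log2 fold change of HBO against SCI (horizontal axis) for each tested gene of the family with its 95% confidence interval; the second Ltbp4 ID is left out. All intervals but that of Tgfbrap1 cross 0, and those of Bmp15, Gdf3 and Gdf9 are among the widest.

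Beyond the family itself, 49 further genes of the pathway were read: secreted antagonists, other ligands, co-receptors, proteins that release latent TGF-beta, intracellular regulators and transcriptional targets. Of these 42 were tested, and 23 were higher and 3 lower in SCI vs sham, 20 higher and 3 lower in HBO vs sham, and 0 in HBO vs SCI. In SCI that is 54.8% higher and 7.14% lower, against 20% and 16.6% of all tested genes, and in HBO 47.6% and 7.14%, against 17.4% and 13.5%. In SCI 8 of 10 targets rose, as did 4 of 10 antagonists, while 2 antagonists fell. The other rises were 3 of 6 co-receptors, 3 of 5 release genes and 5 of 9 intracellular regulators, and neither other ligand passed.

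Among targets, Ctgf, a matrix-associated growth factor, was at 1.67, 1.88 and 3.19 FPKM in sham, 18.3, 9.52 and 11 after SCI and 9.81, 10.5 and 11.3 after SCI with HBO. It lay wholly above sham (2.54 ± 0.30, adjusted p = 0.000542, and 2.24 ± 0.30, adjusted p = 0.000954), and 23.2% of its exon bases are shared with Gm15270 on the opposite strand. Tgfbi, a TGF-beta-induced matrix protein, rose from 6.22 to 12.5 FPKM to 28.9 to 53.1 in SCI and 33.5 to 65 in HBO (2.31 ± 0.33, adjusted p = 0.00102, and 2.35 ± 0.33, adjusted p = 0.00123). The BMP targets Id1 and Id3, inhibitors of basic helix-loop-helix factors, rose by 0.65 ± 0.21 (adjusted p = 0.0343) and 1.36 ± 0.27 (adjusted p = 0.00408) in SCI. Their relatives Id2 (0.27, adjusted p = 0.163) and Id4 (-0.08, adjusted p = 0.73) did not pass. The call of Id1 was lost without any of sham replicates 1 to 3 or SCI replicates 1 or 3 (0.43 to 0.68, adjusted p up to 0.144).

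The genes that anchor or release latent TGF-beta gave a split picture. Nrros, which anchors latent TGF-beta1 on microglia and macrophages, was at 0.682, 0.737 and 0.955 FPKM in sham, 4.11, 3.27 and 2.55 after SCI and 2.54, 4.31 and 3.02 after SCI with HBO. No injured library overlapped with sham (2.08 ± 0.25, adjusted p = 0.00055, and 2.06 ± 0.25, adjusted p = 0.000808). Lrrc32, GARP, which does the same on regulatory T cells and other cells, rose by 2.07 ± 0.26 (adjusted p = 0.000605) and 1.62 ± 0.26 (adjusted p = 0.002). The integrin chain Itgb8, which activates that latent form with Itgav, was level (0.11, adjusted p = 0.562). Itgav was the gene of the 49 with an unadjusted p under 0.05 in HBO vs SCI, and it is named after its values were seen. It was at 16.2, 21.1 and 18.2 FPKM in sham, 17.8, 25.6 and 29.2 after SCI and 13.4, 16.1 and 15.2 after SCI with HBO, so that HBO lay below both other groups. The log2 difference of HBO against SCI was -0.70 ± 0.17 (unadjusted p = 0.00192), which did not pass over all genes (adjusted p = 0.916). Of the 42 tested genes, 1 had an unadjusted p under 0.05, against 4.18% of all tested genes. HBO and SCI did not overlap in FPKM in 3 of the 42 (Itgav, Chrdl1 and Atoh8), against 7.9% of all tested genes. Chrdl1 was lower in HBO and Atoh8 was higher.

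Among antagonists and regulators, Inha, the inhibin alpha subunit that opposes activin, fell by 0.86 ± 0.17 (adjusted p = 0.0041) and 0.96 ± 0.17 (adjusted p = 0.00352), from 7.28 to 9.04 FPKM in sham to 3.93 to 5.1 in SCI and 3.74 to 4.32 in HBO. Ppm1a, a phosphatase described as acting on Smads, fell by 0.68 ± 0.14 (adjusted p = 0.00453) and 0.56 ± 0.14 (adjusted p = 0.0139). Pmepa1, a TGF-beta-induced inhibitor of the pathway, rose by 1.28 ± 0.18 (adjusted p = 0.00089) and 1.18 ± 0.18 (adjusted p = 0.00153). Nog, noggin (0.54, adjusted p = 0.147), and Grem1 (-1.05 ± 0.45, adjusted p = 0.0916) did not pass, the latter passing without SCI replicate 2 (-1.65, adjusted p = 0.0205). Of the co-receptors, the endothelial Eng, endoglin, rose by 1.07 ± 0.17 (adjusted p = 0.00151) and 0.92 ± 0.17 (adjusted p = 0.00382), and the pseudoreceptor Bambi by 1.27 ± 0.31 (adjusted p = 0.0102) and 1.03 ± 0.31 (adjusted p = 0.0317).

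**Figure D5:**
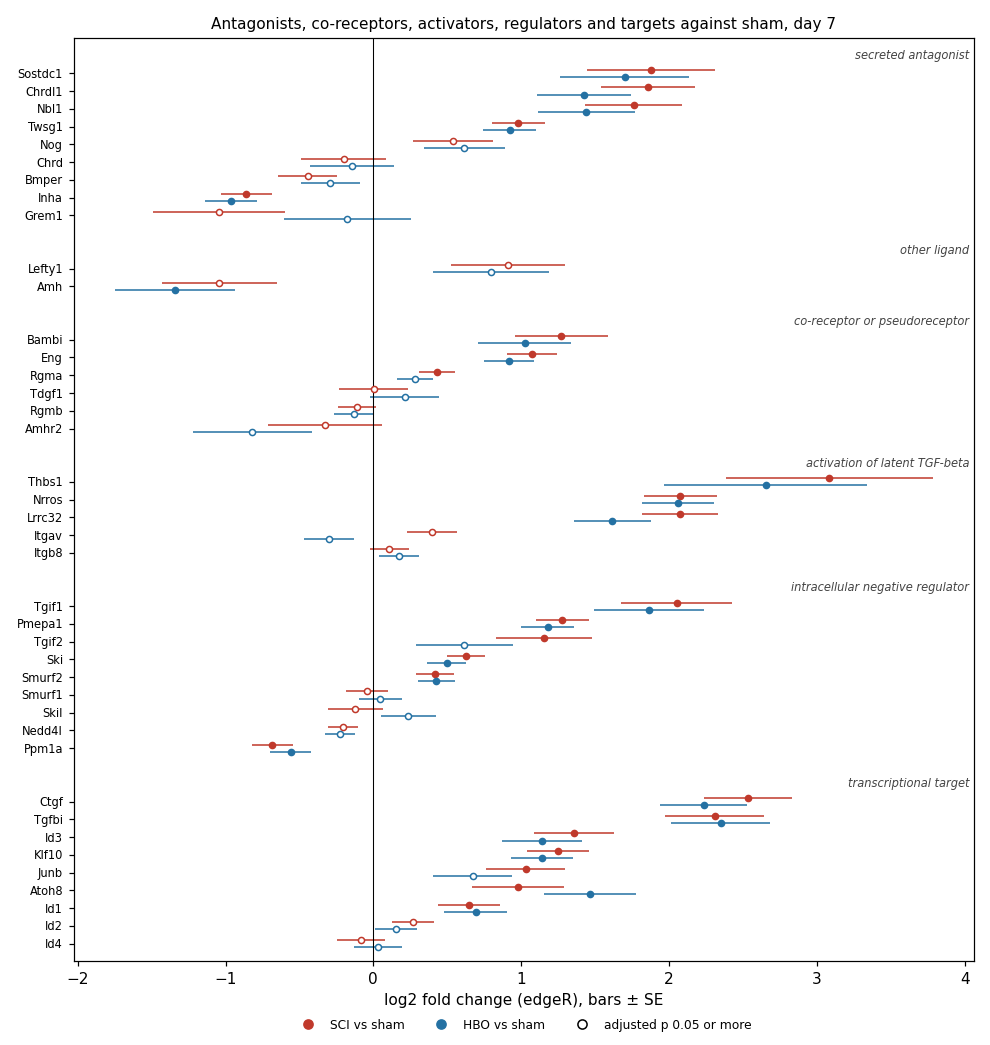
Log2 fold change against sham (horizontal axis) of further pathway genes, grouped by role, for SCI and for HBO, with bars of 1 standard error. Thbs1 and Ctgf lie furthest to the right in SCI, and Inha and Ppm1a to the left of 0 in both groups.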

How the data were processed

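RNA-seq of 9 mouse spinal cord libraries (sham, SCI and SCI with HBO, 3 each) was used. HISAT2 and the build GRCm38 (mm10) are named in the submitters' processing notes. The sources used here do not give the counting tool, its strand setting or the annotation release. The authors deposited, per library, raw gene counts and FPKM values, the latter normalized for length and depth. Counts and FPKM were 0 in the same cells throughout. Counts set the tests; FPKM served to compare levels between genes.

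Genes with enough counts (filterByExpr by group, minimum count 10) were scaled by TMM and fitted with edgeR 4.0.16 in R 4.3.3 (quasi-likelihood, 1 mean per group over all 9 libraries), with Benjamini-Hochberg adjustment over 17901 genes and a threshold of 0.05. The standard error of a log2 difference was taken from its F statistic (size over root F). Replicates differed beyond sampling noise (chi-square per degree of freedom 11.5 to 36.3). Alternatives were DESeq2 1.42.0, RLE scaling, no filter, limma 3.58.1 on log2(FPKM + 0.1), a fit of the groups compared, a replicate block, and leaving out libraries. The script was tested on simulated data.

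Values in every library are given for genes that passed against sham with a log2 change of at least 1 and a mean of at least 1 FPKM, the 6 most abundant, those with an unadjusted p under 0.05 in HBO vs SCI, and the most abundant of each role. Of the further pathway genes, up to 5 in each direction with the smallest p in SCI vs sham were named, with 9 chosen for their role; some of these are not reported here. Other names were chosen after their values were seen. The members and lists were chosen with earlier results of these data known. Exon overlaps are from GENCODE M21, which held 59 of the 60 IDs.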

Additional observations from a re-analysis of the deposited data

How the results depend on the processing

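The count of genes of the family that passed in SCI vs sham was 24 to 35 over the alternatives (35 as reported), and 0 passed in HBO vs SCI under each. In HBO vs sham, leaving out single libraries gave 18 (without HBO replicate 2) to 29 genes, with 20 without sham replicate 1, in place of 32, and 15 (without sham replicate 1) to 23 of the further pathway genes in place of 23. Over all tested genes, the fewest in HBO vs sham also passed without sham replicate 1 or HBO replicate 2. That number fell without any single library but HBO replicate 1, where it rose. In SCI vs sham, the 24 came without the 3 libraries that stood apart. The fewest of all tested genes passed in that setting too. Of the calls in the family, 25 of 35 in SCI vs sham and 17 of 32 in HBO vs sham held without each library in turn. The median over the family in HBO vs sham was 0.70 without the 3 libraries that stood apart (0.57 with them). Signs turned, with no call at stake, for Smad7 in HBO vs sham (-0.15 to 0.15 without single libraries, with 0.041 without sham replicate 1 and 0.15 without HBO replicate 3, and 0.13 without the 3 libraries), Tgfbrap1 in HBO vs sham (-0.39 to 0.036, with 0.030 without sham replicate 2 and 0.036 without HBO replicate 1) and Itgb8 in SCI vs sham (-0.011 to 0.22, the former without sham replicate 1). The cause was not tested. Of 1243 values of single genes under an alternative, 1095 kept direction and side of the threshold, 138 kept direction and no longer passed, 4 newly passed and 6 turned. Libraries of different groups share only a replicate number: same-numbered libraries correlated at -0.179 to 0.138 in their deviations from group means, and not every library correlated best with its own number. With the replicate block 30 genes of the family passed in SCI vs sham, 26 in HBO vs sham and 0 in HBO vs SCI. Fewer of all tested genes passed with the block as well, in both comparisons with sham. Low counts limit Bmp15, Gdf3, Gdf15, Fst and the second Ltbp4 ID, which had fewer than 10 counts in some sham library.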
